A study of Mus musculus with 16 samples.

Results

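The genes described here are 8 chemokine receptors that guide T cells into inflamed or particular tissues: Cxcr3, Cxcr6, Ccr2, Cx3cr1, Ccr9, Ccr4, Cxcr5 and Cxcr4. They were chosen by name, as chemokine receptors other than the lymph node homing receptor Ccr7, and are 8 of the 54456 genes in the count table. The study sequenced RNA from OT-I T cells as 16 bulk libraries, 4 per combination of tissue and diet. OT-I mice carry a transgenic T cell receptor with which CD8 T cells recognise a peptide of ovalbumin, and all 4 groups share it. The HFD LN and HFD VAT groups are T cells from the lymph nodes (LN) and visceral adipose tissue (VAT) of mice fed a high-fat diet with 60% of its calories from fat for 8 weeks. The lean LN and lean VAT groups are the same cells from mice on standard chow for 8 weeks. The cells are labelled as freshly isolated in 1 place, while the design text says that they were kept overnight in culture and then sorted as pure T cells. The column names add the term Neg-OVA in all 16 libraries, which the labels do not explain, and the animals' strain, sex and age are not given there. Libraries of a group are labelled as biological replicates and nothing more ties them to separate animals, so p-values measure the spread between these samples.

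Chemokine receptors are G protein-coupled receptors on the surface of leukocytes, and their small secreted ligands draw cells along a gradient or hold them in a tissue. Naive T cells carry receptors for lymph node entry, and activated T cells replace them with receptors for inflamed tissue or for a given organ such as skin or gut. After ligand binding the receptor signals through Gi proteins, kinases and arrestins switch it off, and RGS proteins shorten the G protein signal.

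Totals ran from 40212388 to 65957407 counts per library. Levels are given as CPM, counts scaled to a common library size by TMM, and 3 counts in a library correspond to 0.0437 to 0.0804 CPM. Some libraries lacked genes that the rest of their group expressed (median 10 CPM or more there, 3 counts or fewer in the library): the share was 11.4% in HFD VAT replicate 1, 11.5% in HFD VAT replicate 3 and 13.3% in lean VAT replicate 1, against 0.818% to 5.45% in the other 13 libraries. The part of this loss in the zeros of the lower receptors was not tested. The T cell label held against its markers: 10 T cell markers summed to 8408 to 11592 CPM in the 16 libraries. The marker Cd8a was at 533 to 854 CPM in LN and 1674 to 2299 CPM in VAT, while Cd4 did not pass 4.76 CPM. Cd8b1, the gene of the other CD8 chain, went the other way, at 1965 to 2262 CPM in LN and 1077 to 1703 in VAT. Cd5 was also lower in VAT, at 96.0 to 227 CPM in LN and 0 to 36.1 in VAT. In bulk RNA, fewer cells of a type and less RNA of a gene per cell cannot be told apart.

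All 8 receptors passed the filter on low counts and were tested among 15675 genes by edgeR (quasi-likelihood), with p-values adjusted over all of them after Benjamini and Hochberg and a threshold of 0.05. The first question was which receptors differ between T cells of VAT and of LN. On HFD, 2 of the 8 rose in VAT, Cxcr3 and Cxcr6, and none fell, against 2.68% of all tested genes that rose, 1.88% that fell and 4.56% in both directions together. In lean mice the receptors that rose were again Cxcr3 and Cxcr6, 2 of 8, against 2.12% of all genes that rose, 0.919% that fell and 3.04% together. Averaged over both diets, Cxcr3 and Cxcr6 rose and Ccr4 fell, 3 of 8, against 5.77% of all tested genes that rose, 4.52% that fell and 10.3% together. The median log2 difference of the 8 receptors was 0.78 on HFD and 1.82 in lean mice, beside medians of all tested genes of -0.10 and -0.0029. The medians do not describe a common rise, since 4 of the 8 on HFD and 5 of the 8 in lean mice were fitted higher in VAT. The lean median lies between Cxcr6 (1.75) and Cxcr4 (1.87), and the Cxcr4 value turned to -0.75 without lean VAT replicate 1. The 4 VAT and 4 LN libraries did not overlap for 4 of the 8 receptors on HFD (15.2% of all genes) and for 2 of the 8 in lean mice (12.9% of all genes).

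**Figure D1:**
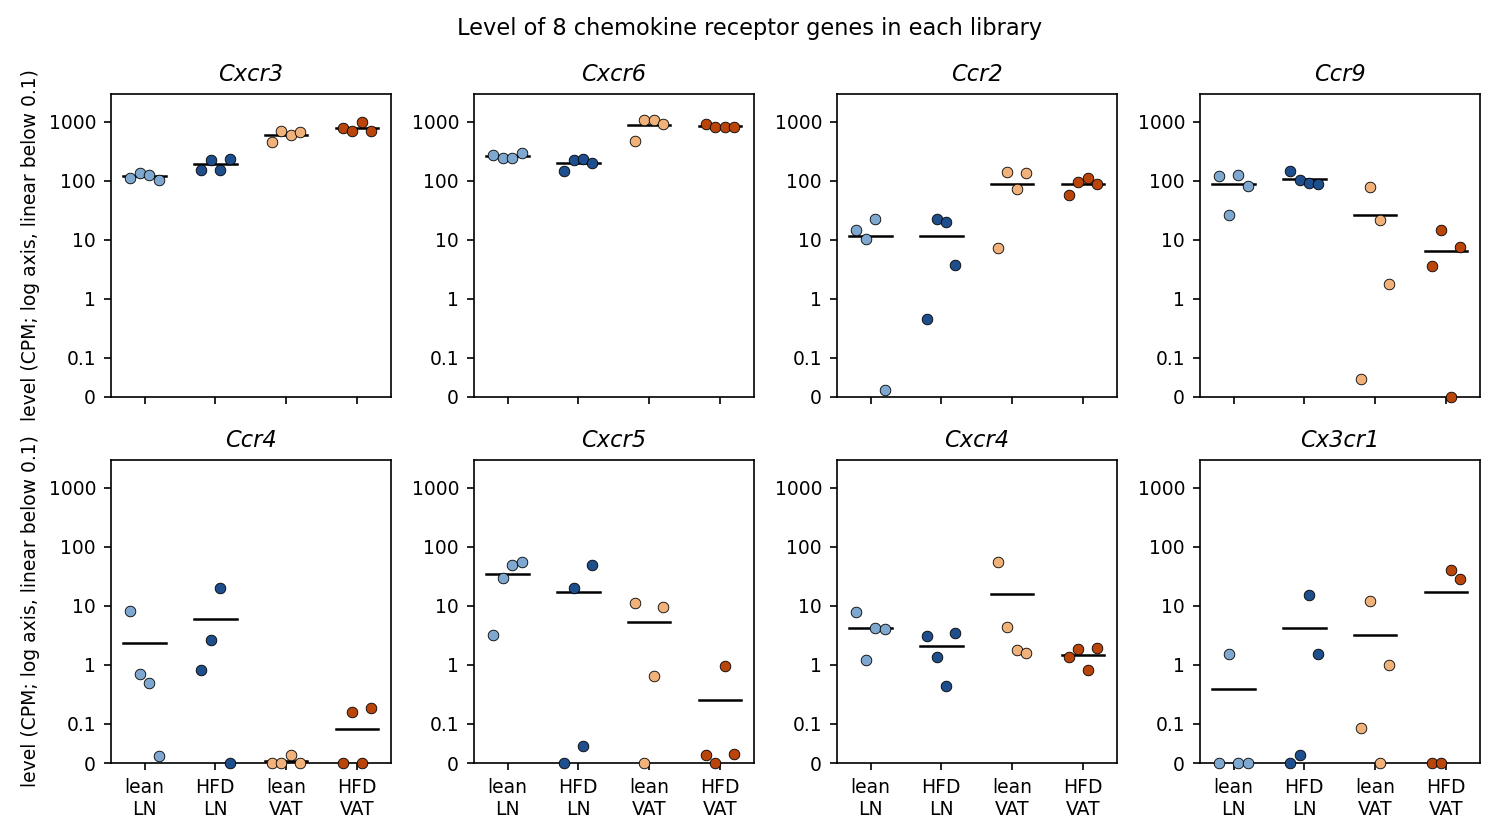
Level of each of the 8 receptor genes in CPM, on a log axis that is linear below 0.1, in the 4 groups. Each point is 1 library and each bar is the mean of 4. Cxcr3 and Cxcr6 stand above all LN libraries in every VAT library, and Ccr9 stands below all LN libraries in every HFD VAT library and overlaps between tissues in lean mice. Ccr4, Cxcr5 and Cx3cr1 vary over orders of magnitude within some groups, as do Ccr2 in lean LN and Ccr9 in lean VAT. Cxcr4 runs from 1.59 to 55.1 CPM in lean VAT and less widely in the other groups.

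Cxcr3 and Cxcr6 are the receptors of inflamed tissue and tissue residence in this set. Cxcr3 binds the interferon-induced chemokines Cxcl9, Cxcl10 and Cxcl11 and brings effector T cells into inflamed tissue. Cxcr6 binds Cxcl16 and is a common receptor of tissue-resident CD8 T cells. Because these are the receptors that rose, the 250 bases before their start sites are shown, from RefSeq's tables for GRCm38.p6, where 7 of the 8 receptors were matched. Matches to a T-box core (GTGTGA) and a RUNX core (TGTGGT), searched on both strands, are in capitals and do not overlap each other. The Cxcr3 stretch is chrX:101734148-101734397 on the minus strand and the Cxcr6 stretch is chr9:123806227-123806476 on the plus strand.
Cxcr3: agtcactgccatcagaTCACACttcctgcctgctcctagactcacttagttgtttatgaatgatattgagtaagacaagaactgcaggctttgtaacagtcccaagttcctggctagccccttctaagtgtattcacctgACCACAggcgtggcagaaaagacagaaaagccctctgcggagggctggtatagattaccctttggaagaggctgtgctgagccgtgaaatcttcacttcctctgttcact
Cxcr6: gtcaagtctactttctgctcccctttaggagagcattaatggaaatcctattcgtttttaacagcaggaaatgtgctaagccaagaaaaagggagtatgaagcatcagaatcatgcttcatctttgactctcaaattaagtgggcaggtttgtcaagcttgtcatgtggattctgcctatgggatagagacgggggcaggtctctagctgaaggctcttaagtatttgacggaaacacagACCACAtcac
In the Cxcr3 stretch the capitals are a T-box match 234 to 229 bases before the start and a RUNX match 110 to 105 bases before it, and in the Cxcr6 stretch a RUNX match 10 to 5 bases before it. All of these lie on the strand opposite to the gene. Over 32851 promoters of the same length, the T-box letters were found in 12.3% and the RUNX letters in 14.1%. Of the 7 receptor promoters, 1 held the T-box letters and 3 held the RUNX letters, those of Cxcr3, Cxcr6 and Cx3cr1. An interferon-stimulated response element (GAAA, any 2 bases, GAAA), found in 2.98% of all promoters, and a STAT site (TTCNNNGAA), found in 7.02%, matched none of the 7. A match describes the letters and is not a measured binding site.

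Cxcr3 stood at 154, 225, 154 and 237 CPM in the HFD LN libraries and at 781, 701, 1000.4 and 689 CPM in HFD VAT. It stood at 112, 134, 124 and 104 CPM in lean LN and at 453, 686, 595 and 658 CPM in lean VAT. The lowest VAT library of either diet was above the highest LN library of either diet. The means were 193 ± 44.7 in HFD LN, 793 ± 144 in HFD VAT, 119 ± 13.4 in lean LN and 598 ± 104 CPM in lean VAT (SD, n = 4 each). Cxcr3 was 4.12-fold higher in VAT on HFD (log2 difference 2.04, SE 0.20; edgeR adjusted p = 2.84e-05) and 5.05-fold higher in lean mice (2.34, SE 0.20; edgeR adjusted p = 1.58e-05).

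Cxcr6 stood at 145, 221, 233 and 198 CPM in HFD LN and at 924, 796, 807 and 799 CPM in HFD VAT. In lean mice it stood at 270.3, 239, 240.4 and 299 CPM in LN and at 475, 1055, 1083 and 924 CPM in VAT. Every VAT library was again above every LN library of both diets, and lean VAT replicate 1 was the lowest of the VAT libraries. Means were 199 ± 39.3 in HFD LN, 831 ± 61.7 in HFD VAT, 262 ± 28.4 in lean LN and 884 ± 282 CPM in lean VAT (SD, n = 4 each). The difference between tissues was 4.17-fold on HFD (log2 2.06, SE 0.23; edgeR adjusted p = 9.74e-05) and 3.38-fold in lean mice (1.75, SE 0.23; edgeR adjusted p = 0.000419).

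When HFD VAT replicates 1 and 3 and lean VAT replicate 1, which lacked the most genes, were left out, the log2 differences were 1.84 on HFD and 2.42 in lean mice for Cxcr3 (edgeR adjusted p = 0.000321 and 5.04e-05) and 1.99 and 1.93 for Cxcr6 (0.000149 and 0.000135). Both genes held most of the summed level of these 8 receptors in every library, and a larger share in VAT. Receptors outside the 8, such as Ccr7, are not counted in it. Together they held 92.2% to 96.4% of the summed CPM of the 8 receptors in the HFD VAT libraries and 88.1% to 94.6% in lean VAT, against 66.2% to 74.7% in HFD LN and 64.2% to 84.2% in lean LN. The VAT and LN libraries did not overlap in this share, which follows largely from the rise of these 2 genes and is no separate result. The summed level of the 8 receptors was 1609 to 1960 CPM in HFD VAT and 1002 to 1975 in lean VAT, and 451 to 596 in HFD LN and 443 to 567 in lean LN.

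Ccr2, the receptor for Ccl2 and related monocyte-drawing chemokines, is carried by inflammatory monocytes and by effector and memory T cells. It stood at 0.443, 22.4, 20.2 and 3.701 CPM in HFD LN and at 58.1, 94.8, 109.6 and 87.5 CPM in HFD VAT, with no overlap. In lean mice it stood at 14.3, 10.3, 22.1 and 0.0187 CPM in LN and at 7.24, 139, 71.8 and 133 CPM in VAT. Lean VAT replicate 1, at 7.24 CPM, lay among the lean LN libraries while the other 3 lay above them. The fitted differences were 7.49-fold on HFD (log2 2.91, SE 1.37; edgeR adjusted p = 0.274) and 7.51-fold in lean mice (2.91, SE 1.37; adjusted p = 0.373), and neither passed the test. The average over diets missed the threshold as well (edgeR adjusted p = 0.0752), although DESeq2 (0.00491) and limma voom (0.0106) called it.

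Cx3cr1 binds the membrane-bound chemokine Cx3cl1 and marks cytotoxic effector T cells and many macrophages. It stood at 0, 0.0196, 15.2 and 1.53 CPM in HFD LN and at 0, 0, 41.1 and 28.0 CPM in HFD VAT. In lean LN 3 libraries were at 0 and replicate 2 was at 1.55 CPM, and in lean VAT the values were 0.0905, 11.9, 0 and 0.987 CPM. Each VAT group held libraries above 10 CPM beside libraries at or near 0, and the tissues overlapped on both diets. The fitted differences were 4.11-fold on HFD (log2 2.04, SE 2.98; edgeR adjusted p = 0.841) and 8.38-fold in lean mice (3.07, SE 3.10; adjusted p = 0.875). Without lean VAT replicate 2 the lean difference turned to -0.11 on the log2 scale.

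Summed markers of other cells stood apart between the tissues in part, and none of the sums passed an exact two-sided permutation test adjusted over 32 tests. With 4 against 4 libraries the smallest p of that test is 0.0286, here an adjusted p of 0.0914. It was reached on both diets by the macrophage, NK and B cell sums, on HFD by the dendritic and CD4 sums and in lean mice by the gamma delta sum, all without overlap. The 13 macrophage and monocyte markers, of which 1 passed the low-count filter, summed to 45.3 to 146 CPM in HFD VAT and 27.5 to 78.7 CPM in lean VAT, against 0.0638 to 2.43 in HFD LN and 0.144 to 6.14 in lean LN. Most of the VAT sum was Cd68 (mean 60.9 ± 47.8 in HFD VAT and 38.8 ± 26.97 CPM in lean VAT, SD, n = 4), a lysosomal protein gene. Adgre1, which encodes the macrophage marker F4/80, did not pass 0.0268 CPM in any library. Cd14, C1qa and C1qc were at 0 in every HFD VAT library, and Cd14, C1qa and Itgam were at 0 in every lean VAT library. The 8 NK and ILC markers summed to 241 to 349 CPM in HFD VAT and 104 to 292 in lean VAT, against 19.2 to 43.9 in HFD LN and 19.0 to 53.6 in lean LN, while the NK receptor gene Ncr1 was at 0 in all HFD libraries and all lean LN libraries. The 7 dendritic cell markers summed to 39.4 to 109.7 CPM in HFD VAT and 0.679 to 59.0 in lean VAT, against 0.290 to 7.74 in HFD LN and 0.0194 to 22.2 in lean LN, with Siglech at 0 in all libraries of HFD LN, HFD VAT and lean LN, and the lean groups overlapped (exact permutation test, adjusted p = 0.392). The 5 gamma delta T cell markers found in the table, of 7 listed, summed to 437 to 615 CPM in HFD VAT and 433 to 542 in lean VAT, against 249.5 to 439 in HFD LN and 211 to 298 in lean LN. Most of each sum was Trdc, and the variable segment gene Trdv4 averaged 61.7 ± 22.4 CPM in HFD VAT and 89.3 ± 38.8 in lean VAT, against 4.32 ± 3.40 in HFD LN and 5.72 ± 5.37 in lean LN (SD, n = 4). Sox13 went the other way in its means, at 6.43 ± 7.62 CPM in HFD VAT and 12.6 ± 11.6 in lean VAT. Its LN means were 30.5 ± 29.8 on HFD and 17.8 ± 11.4 CPM in lean mice. Trgc1 had the lower mean in VAT on HFD only (25.8 ± 5.27 against 32.8 ± 19.4 CPM). The 5 adipocyte markers summed to at most 2.00 CPM in any library. The part of these cells in the receptor levels, those of Cxcr3 and Cxcr6 included, was not tested.

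The other receptors are tied to particular organs, and of these Ccr4 alone passed an edgeR test between tissues, in the average over diets. Ccr9, the receptor for Ccl25 that directs T cells to the small intestine and is also carried by cells leaving the thymus, stood at 148, 104, 91.8 and 89.3 CPM in HFD LN and at 3.60, 14.8, 0 and 7.55 CPM in HFD VAT. In lean mice it stood at 121, 26.3, 126 and 82.4 CPM in LN and at 0.0452, 79.0, 21.8 and 1.76 CPM in VAT. The tissues did not overlap on HFD, while lean VAT replicate 2 stood above lean LN replicate 2. The fitted fold was 16.7 lower in VAT on HFD (log2 -4.06, SE 1.69; edgeR adjusted p = 0.209) and 3.46 lower in lean mice (-1.79, SE 1.53; adjusted p = 0.799), and neither passed the test. DESeq2 called the HFD difference (adjusted p = 0.0313) and, averaged over diets, DESeq2 (0.019) and limma voom (0.0202) called it where edgeR did not (0.13). Ccr9 shares 1932 exonic bases with an antisense gene model, AC165425.1, in the GENCODE annotation of GRCm38, and reads of the pair cannot be told apart without strand.

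Ccr4, the receptor for Ccl17 and Ccl22 on skin-homing, type 2 helper and regulatory T cells, was the only receptor that fell in VAT, in the average over diets (log2 -7.16, SE 1.78; edgeR adjusted p = 0.0202). It stood at 0.819, 2.63, 20.4 and 0 CPM in HFD LN and at 0, 0.159, 0 and 0.186 CPM in HFD VAT. In lean mice it stood at 8.29, 0.701, 0.484 and 0.0187 CPM in LN, and at 0 in 3 VAT libraries and 0.0213 CPM, 1 count, in the other. One library held most of each LN mean, replicate 3 on HFD and replicate 1 in lean mice, and the tissues overlapped on both diets. Summed counts were 1107 in HFD LN and 15 in HFD VAT, and 634 in lean LN and 1 in lean VAT, a ratio of 532 with a 95% interval of 95.1 to 21046 that covers counting error only. Within each diet Ccr4 did not pass the test (edgeR adjusted p = 0.183 on HFD and 0.143 in lean mice), while DESeq2 called it on HFD (0.0225), in lean mice (0.00262) and in the average (2.14e-05). Its average call by edgeR was lost without lean VAT replicate 2 (edgeR adjusted p = 0.0534), replicate 3 (0.0545) or replicate 4 (0.0547), without the 3 VAT libraries that lacked the most genes (0.112), without the low-count filter (0.0506), and limma voom did not make it (0.179).

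Cxcr5 binds Cxcl13, which draws B cells and follicular helper T cells into B cell follicles. It stood at 0, 20.1, 0.0441 and 49.2 CPM in HFD LN and at 0.0218, 0, 0.964 and 0.0233 CPM in HFD VAT. In lean mice it stood at 3.24, 30.2, 49.9 and 54.8 CPM in LN and at 11.4, 0, 0.639 and 9.51 CPM in VAT. The tissues overlapped on both diets, and the differences did not pass the test (log2 -6.10, SE 2.75, edgeR adjusted p = 0.249 on HFD; -2.68, SE 2.34, 0.809 in lean mice). DESeq2 alone called the HFD difference (adjusted p = 0.023) and the average over diets (0.0135, against 0.153 by edgeR). Of 14 B cell markers 13 were tested, and the 14 summed to 1757 to 2518 CPM in HFD LN and 1634 to 3165 in lean LN, against 169 to 360 in HFD VAT and 85.7 to 221 in lean VAT, with no overlap (exact permutation test, adjusted p = 0.0914 on each diet). Ighm made up most of each group's mean sum, at 1527 ± 244.8 CPM in HFD LN and 1532 ± 264.7 in lean LN. In VAT it averaged 258.9 ± 103.3 CPM on HFD and 123.2 ± 49.35 in lean mice (SD, n = 4). It did not fall below 83.18 CPM in any VAT library. Cd79a, a signalling chain of the B cell receptor, averaged 119.5 ± 49.5 CPM in HFD LN and 114 ± 86.5 in lean LN (SD, n = 4) and did not pass 0.0268 CPM in HFD VAT or 1.04 CPM in lean VAT, and Bank1 was at 0 in all VAT libraries. Among LN libraries, HFD LN replicates 1 and 3, with B cell sums of 1998 and 1757 CPM, held Cxcr5 at 0 and 0.0441 CPM. Because Ighm is most of the sum, similar sums do not show similar levels of the other B cell markers. Some of these ran widely in HFD LN, Cd22 from 0.04405 to 70.25 CPM and Bank1 from 0 to 27.69. The sum of 8 CD4, regulatory and follicular helper T cell markers was instead higher in VAT, at 77.9 to 179 CPM on HFD and 62.6 to 275 in lean mice against 34.3 to 70.5 and 24.5 to 79.8 in LN, most of it Ikzf2. Cd40lg, another of the 8, went the other way, at 21.6 to 39.8 CPM in HFD LN and 24.2 to 32.3 in lean LN. It was at 0 in every HFD VAT library and at 0 to 9.37 CPM in lean VAT. Il21 and Ccr6 were at 0 in every VAT library, and Foxp3 did not pass 0.0228 CPM in any library. The part of B cells in the Cxcr5 level was not tested.

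**Figure D2:**
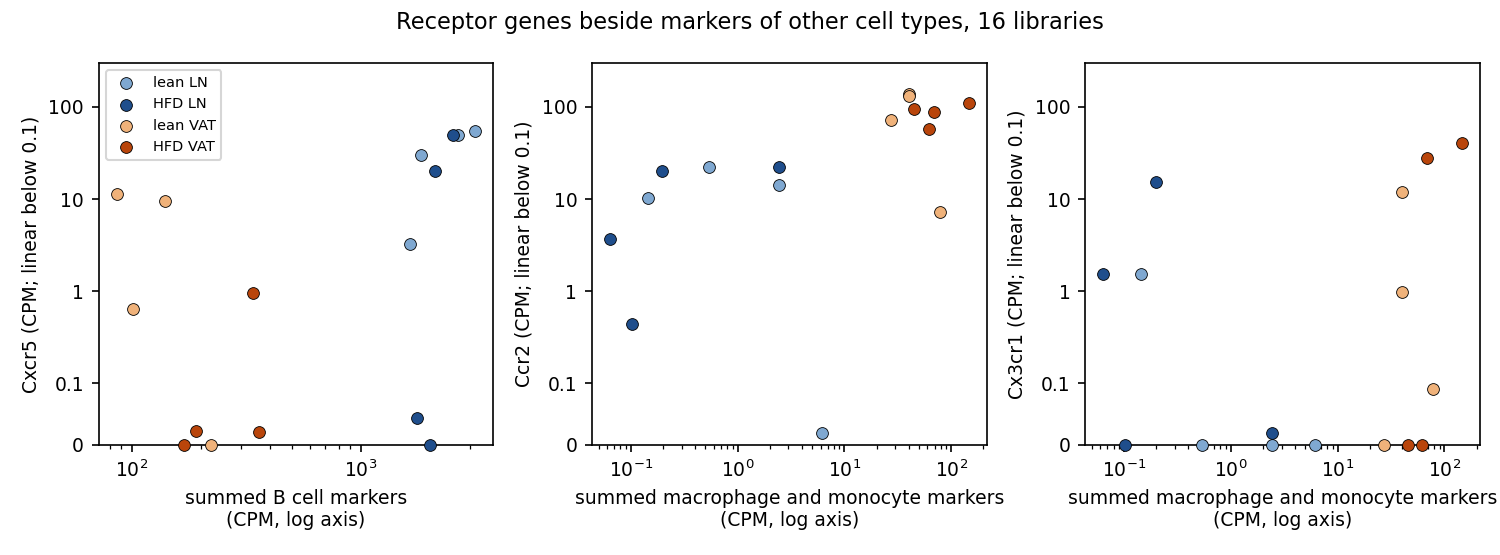
Level of Cxcr5 against summed B cell markers, and of Ccr2 and Cx3cr1 against summed macrophage and monocyte markers, in CPM on log axes that are linear below 0.1 for the receptors. Each point is 1 of 16 libraries and colours are the 4 groups. The marker sums separate LN from VAT, while Cxcr5 at similar B cell sums ran from 0 to 20.1 CPM in HFD LN replicates 1 and 2. Most of the B cell sum is Ighm, so similar sums do not show similar levels of the other B cell markers.

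Cxcr4, the receptor for Cxcl12 that holds leukocytes in bone marrow, was low in nearly every library. It stood at 3.05, 1.35, 0.441 and 3.49 CPM in HFD LN and at 1.35, 1.89, 0.804 and 1.93 CPM in HFD VAT. In lean mice it stood at 7.78, 1.203, 4.14 and 3.98 CPM in LN and at 55.1, 4.31, 1.77 and 1.59 CPM in VAT. Lean VAT replicate 1 stood above all others, and the tissues overlapped on both diets. The fitted difference between tissues was -0.48 (SE 1.11) on HFD and 1.87 (SE 1.14) in lean mice on the log2 scale (edgeR adjusted p = 0.916 and 0.584). Without lean VAT replicate 1 the lean difference turned to -0.75.

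**Figure D3:**
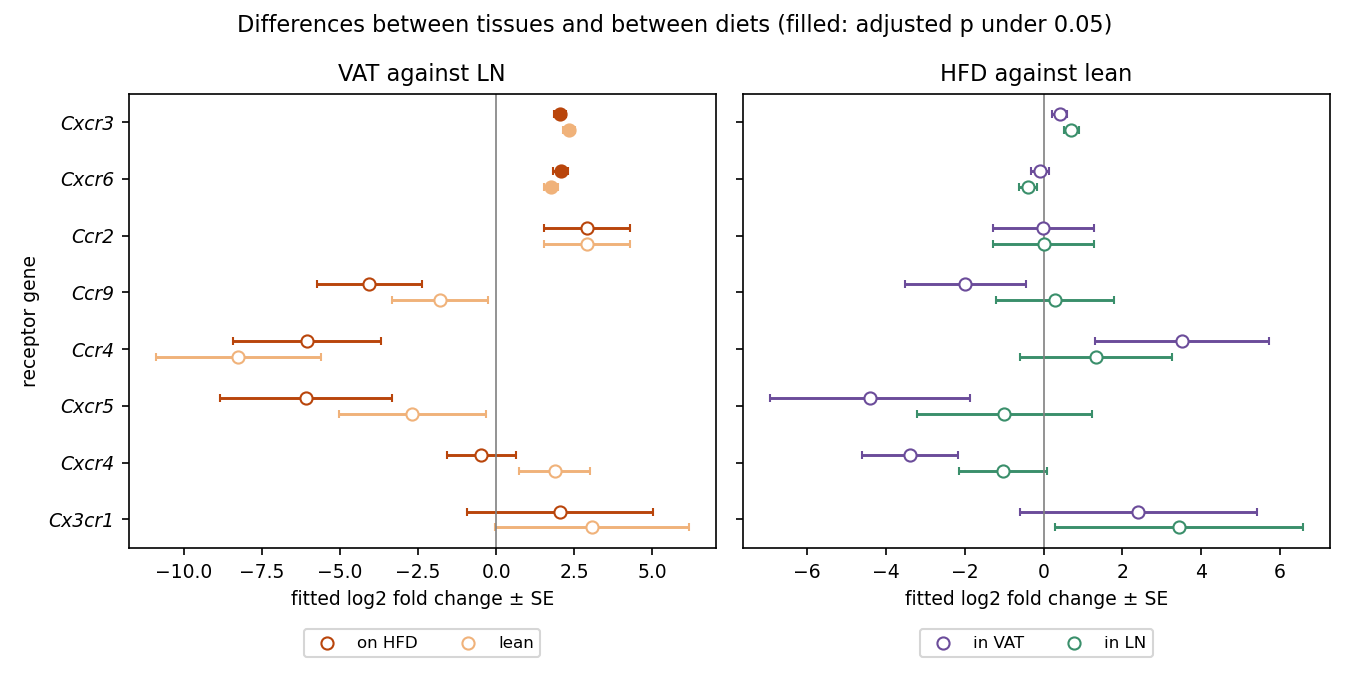
Fitted log2 fold change with its standard error for each receptor, VAT against LN on the left and HFD against lean on the right, from edgeR over 16 libraries. Filled points passed an adjusted p of 0.05 and open points did not. Cxcr3 and Cxcr6 have short error bars and filled points between tissues, and no point is filled between diets.

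Per length of the principal transcript, the order of the receptors differed by tissue. In HFD VAT Cxcr3 led with 458 ± 83.5 CPM per kb, followed by Cxcr6 with 438 ± 32.5 and Ccr2 with 15.3 ± 3.79. In lean VAT Cxcr6 (466 ± 149) and Cxcr3 (346 ± 60.1) were again followed by Ccr2 (15.3 ± 10.8). In LN the same pair came first, with Cxcr3 at 111 ± 25.8 and Cxcr6 at 105 ± 20.7 on HFD and at 68.5 ± 7.71 and 138 ± 15.0 CPM per kb in lean mice, and Ccr9 came next at 20.9 ± 5.25 on HFD and 17.1 ± 8.86 in lean mice (SD, n = 4 each). Cxcr3 and Cxcr6 differed by more than the larger of their SDs in lean LN and not in the other groups. Ccr2 stood beyond that spread above the next receptor, Cx3cr1, in HFD VAT, and Ccr9 above the next, Cxcr5, in HFD LN. Further down the order, neighbours lay within the larger SD of the pair, except Cxcr4 (0.828 ± 0.294) above Cxcr5 (0.0887 ± 0.167) in HFD VAT and Cxcr5 (12.1 ± 8.23) above Cxcr4 (2.37 ± 1.495) in lean LN. At the end of the order stood Ccr4 in VAT, at 0.0308 ± 0.0358 on HFD and 0.0019 ± 0.0038 in lean mice, and Cx3cr1 in LN, at 0.934 ± 1.65 on HFD and 0.086 ± 0.172 CPM per kb in lean mice.

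The second question was whether diet moves these receptors within a tissue. None of the 8 passed the edgeR test in VAT, against 0.0574% of all genes (9 of 15675), and 2 of the 8 had an unadjusted p under 0.05, against 8.08% of all genes. In LN none of the 8 passed, against 0% of all genes, and 1 of the 8 had an unadjusted p under 0.05, against 3.37% (529 genes), where DESeq2 called 236 and limma voom 3 genes. Cxcr3 was higher on HFD with no overlap in both tissues, by 1.62-fold in LN (log2 0.70, SE 0.19; unadjusted p = 0.00245, edgeR adjusted p = 1) and by 1.33-fold in VAT (0.41, SE 0.19; unadjusted p = 0.0498, edgeR adjusted p = 0.618). The 4 HFD VAT libraries, at 689 CPM and more, stood above the highest lean VAT library at 686 CPM, so the gap in VAT is narrow. Without the 3 VAT libraries that lacked the most genes, the VAT difference was 0.12 on the log2 scale (edgeR adjusted p = 1). Cxcr6 was lower on HFD in LN with no overlap, by 1.32-fold (log2 -0.40, SE 0.22; edgeR adjusted p = 1), and overlapped in VAT (-0.09, SE 0.22; adjusted p = 1). Libraries without overlap were seen for 1 of 8 receptors in VAT (3.22% of all genes) and for 2 of 8 in LN (2.26% of all genes). DESeq2 called the Cxcr3 difference in LN (adjusted p = 0.0494).

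The ratio of Cxcr6 to Cxcr3 within a library, as CPM over CPM, was 0.835 to 1.52 in HFD LN and 1.78 to 2.87 in lean LN, with no overlap. In VAT it was 0.806 to 1.18 on HFD and 1.05 to 1.82 in lean mice, where the groups overlapped. Cxcr4 was 10.5-fold lower in HFD VAT than in lean VAT (log2 -3.39, SE 1.21; unadjusted p = 0.0142, edgeR adjusted p = 0.472), which DESeq2 called (0.0235). Without lean VAT replicate 1 it was -0.77 on the log2 scale (edgeR adjusted p = 1). For Ccr2 the group means were 87.5 ± 21.7 and 87.8 ± 61.7 CPM in VAT and 11.7 ± 11.2 and 11.7 ± 9.20 CPM in LN on HFD and in lean mice (SD, n = 4), yet its spread leaves a 95% interval of the log2 difference from -2.51 to 2.50 in VAT and from -2.50 to 2.50 in LN. Whether the diet effect differed between the tissues was tested directly, and none of the 8 receptors passed, against 0.0191% of all genes (3 of 15675 by edgeR). An unadjusted p under 0.05 was found for 0 of the 8, against 6.16% of all genes, and DESeq2 and limma voom called 0 of the 8. For Cxcr3 that difference was -0.29 on the log2 scale, with a 95% interval of -0.82 to 0.23, and for Cxcr6 0.31, with an interval of -0.30 to 0.92.

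The remaining chemokine receptors, 15 in all of which 6 were tested, included 1 that rose and 1 that fell on each diet, against 2.68% and 1.88% of all genes on HFD and 2.12% and 0.919% in lean mice. Ccrl2, an atypical receptor that binds the chemoattractant chemerin without signalling, rose from 1 count summed over the 4 LN libraries of each diet to 142 ± 24.7 CPM in HFD VAT and 57.1 ± 11.8 in lean VAT (SD, n = 4; edgeR adjusted p = 3.46e-06 and 9.08e-06). The ratios of its summed counts were 28505 (95% counting interval 5116 to 1125935) on HFD and 13435 (2411 to 530704) in lean mice. Ccr7 fell from 801 ± 89.5 to 209 ± 85.8 CPM on HFD and from 921 ± 136 to 179 ± 31.1 in lean mice (edgeR adjusted p = 0.000191 and 6.52e-05). In the average over diets Ccr3 also rose and Ccr10 fell (edgeR adjusted p = 0.0113 and 0.0224), each carried by some libraries of a group. Ccr3 stood at 17.5, 0, 0 and 0.28 CPM in HFD VAT and at 27.7, 2.64, 0.0213 and 8.64 in lean VAT. It did not pass 0.022 CPM in LN. Ccr10 stood at 0, 29.6, 20.3 and 0.0213 CPM in HFD LN and at 0, 0.018, 9.905 and 8.1 in lean LN. It did not pass 0.0218 CPM in VAT.

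Of 14 ligands of the 8 receptors, 5 were tested and 1 rose on each diet, against 2.68% of all genes on HFD and 2.12% in lean mice. Cxcl10, a ligand of Cxcr3 that interferon induces, stood at 0 in every HFD LN library and at 2225 ± 230.1 CPM in HFD VAT (edgeR adjusted p = 0.00298), and at 2.70 ± 5.29 in lean LN and 1098 ± 233 CPM in lean VAT (0.0346). Cxcl16, the ligand of Cxcr6, averaged 0.309 in HFD LN, 3.20 in HFD VAT, 0.813 in lean LN and 0.00417 CPM in lean VAT and did not pass the test. Ccl7, a ligand of Ccr2, rose in the average over diets (edgeR adjusted p = 0.0332) and passed on neither diet (0.181 on HFD and 0.18 in lean mice). It was at 0 in all LN libraries and in 3 of the 4 HFD VAT libraries, at 8.27 CPM in HFD VAT replicate 4, and at 2.32 to 23.2 CPM in lean VAT.

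Genes downstream of the receptors changed in both directions. Of 32 signalling genes, 29 were tested, and 2 rose and 2 fell on HFD, against 4.56% of all genes called, and 3 rose and 2 fell in lean mice, against 3.04%. Rgs1 and Rgs2, which shorten G protein signals, rose on both diets: Rgs1 from 51.2 ± 28.6 to 798 ± 90.6 CPM on HFD and from 53.4 ± 19.6 to 586 ± 144 in lean mice (edgeR adjusted p = 0.000131 and 0.000419). Rgs10, another member of that family, fell from 231 ± 44.4 to 25.8 ± 14.1 CPM on HFD and from 189 ± 24.1 to 20.7 ± 13.9 in lean mice (0.00179 and 0.00203). Grk6, a kinase that switches receptors off, fell 1.68-fold on HFD and 1.77-fold in lean mice (0.00748 and 0.0042), and the G protein subunit gene Gng2 rose in lean mice 10.7-fold (0.00837). Of 5 genes for tyrosine sulfation and shedding of receptors and ligands, all tested, none passed with edgeR on either diet, and 0 on HFD and 2 in lean mice had an unadjusted p under 0.05.

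Of 20 transcription factors of T cell trafficking, all tested, 1 rose and 4 fell on HFD, against 4.56% of all genes called, and 1 rose and 5 fell in lean mice, against 3.04%. Id2, which promotes effector and resident CD8 cells, rose from 82.9 ± 18.2 to 949 ± 132 CPM on HFD and from 91.5 ± 14.01 to 1064 ± 247 in lean mice (edgeR adjusted p = 8.63e-07 and 1.46e-06). Klf2, which keeps the lymph node homing programme, fell from 954 ± 160.1 to 199 ± 31.0 CPM on HFD and from 914 ± 128 to 236 ± 93.5 in lean mice (0.000105 and 0.00041). Lef1, Satb1 and Tcf7, factors of naive and memory T cells, fell on both diets. Tbx21, which encodes T-bet, a known activator of Cxcr3, stood at 248 ± 55.8 against 27.4 ± 12.6 CPM on HFD and at 276 ± 41.6 against 19.1 ± 20.5 in lean mice, without overlap, and passed only in the average over diets (edgeR adjusted p = 0.0144). Of the 65 tested genes of these 5 lists, none passed with edgeR for diet in VAT, diet in LN or the difference between diet effects, and 3, 4 and 5 of them had an unadjusted p under 0.05.

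The genes most like each receptor over the 16 libraries were found by Pearson's r of log2(CPM + 1) among genes with a mean of at least 10 CPM, as a description in which the 4 groups set much of the likeness. For Cxcr3 they were Ifi213 (r = 0.971), the NK receptor gene Klrc1 (0.969) and Ly6c2 (0.966). For Cxcr6 they were the phosphatase gene Dusp1 (0.963) and the interferon-inducible GTPase genes Tgtp2 (0.961) and Gbp10 (0.96). The levels followed those of the receptors: Klrc1 averaged 449 ± 59.6 CPM in HFD VAT and 327 ± 89.0 in lean VAT, against 53.6 ± 11.8 in HFD LN and 21.9 ± 9.89 in lean LN (SD, n = 4). For Ccr2 the nearest were Cd200r4 (0.94), Tesc (0.934) and Ttc39b (0.906), and for Ccr9 Mmut (0.919), the water channel gene Aqp3 (0.915) and Tcea2 (0.91). For Cxcr5 the nearest was Ciita (0.847), the master regulator of MHC class II genes, which B cells express. For Cxcr4 the nearest was Tuba1a (0.86), for Cx3cr1 Pi4ka (0.838) and for Ccr4 Ccdc107 (0.737). Cxcr3 and Cxcr6 had r = 0.892 with each other over the 16 libraries and 0.427 after the group means were taken off.

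Of the 8 receptors, 6 lie on chromosome 9, Cxcr3 on chromosome X and Cxcr4 on chromosome 1. In RefSeq's order for GRCm38.p6, Ccr9, Cxcr6, Xcr1, Ccr1, Ccr1l1, Ccr3 and Ccr2 follow each other, with Fyco1 between Ccr9 and Cxcr6. Within the stretch, Cxcr6 rose in VAT on both diets. Its neighbour Ccr9 did not pass the test on either diet and overlapped between tissues in lean mice. Fyco1 averaged 78.6 ± 34.7 CPM in HFD VAT and 99.98 ± 20.6 in HFD LN and did not pass the test. Cxcr6 lies inside the span of Fyco1 on the opposite strand, with 0 shared exonic bases. Xcr1, Ccr3 and Ccr2 also had higher means in VAT, with fitted folds of 9.32, 341 and 7.49 on HFD. In lean mice the fitted folds were 17.6, 1366 and 7.51. None of these passed the test on either diet, and Ccr3 passed in the average over diets (edgeR adjusted p = 0.0113). Ccr1, the receptor between Xcr1 and Ccr3 in this order together with Ccr1l1, did not pass 0.0218 CPM in any library.

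**Figure D4:**
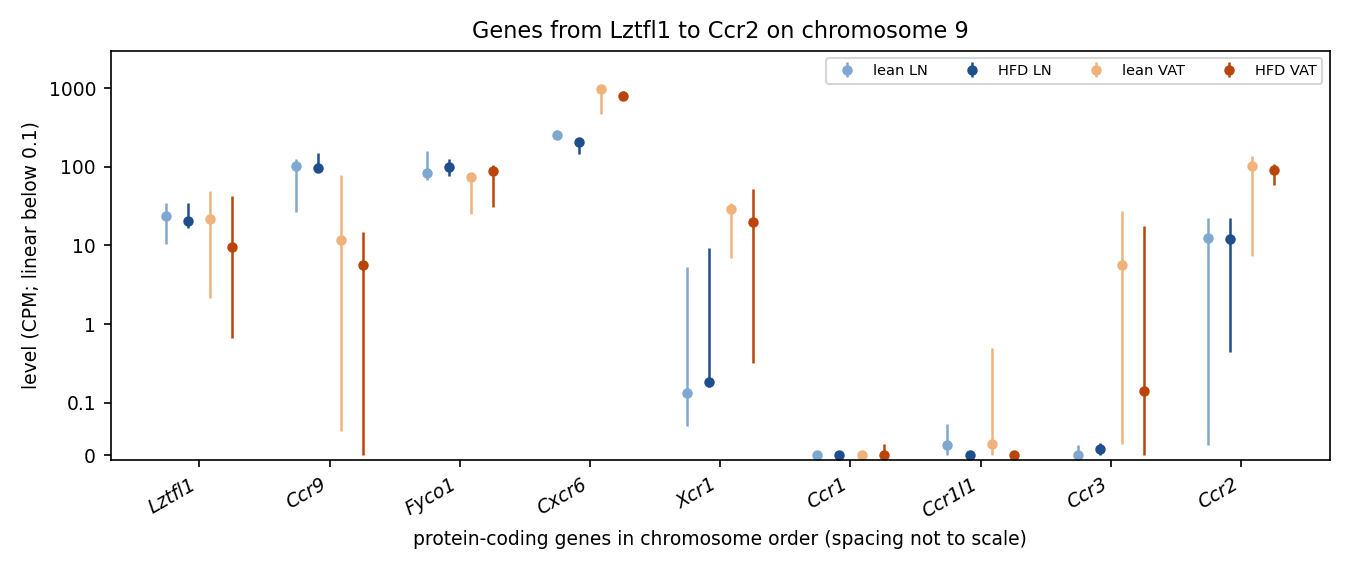
Median level in CPM of the genes from Lztfl1 to Ccr2 on chromosome 9, in chromosome order, with bars from the lowest to the highest of 4 libraries per group, on a log axis that is linear below 0.1. The Cxcr6 bars of VAT lie above those of LN on both diets, the Ccr9 and Ccr2 bars overlap between tissues in lean mice, and Ccr1 lies at or near 0 in all groups.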

How the data were processed

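Whole-number counts per gene were taken as deposited, in 54456 gene rows and 16 sample columns, and 0 sample columns were unused. The authors' tools, per the submitters' processing notes, included kallisto 0.42.4 and DESeq2, with GRCh38 as the build, although GRCh38 is human and the genes carry mouse names, and how kallisto's estimates became whole counts is not given in the sources used here. A part of the labels describes human fibroblasts, and 2 library kits with 2 sequencers are named. PCR-amplified cDNA was counted, so reads are not independent molecules.

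Genes passing filterByExpr (15675 of 33950 with a count) were tested with edgeR 4.0.16 in R 4.3.3 (TMM, robust quasi-likelihood F-test, all 4 groups in 1 fit, common dispersion 1.52) and Benjamini-Hochberg adjustment, at a threshold of 0.05. The comparisons were VAT against LN on each diet and averaged, HFD against lean in each tissue, and the diet effect in VAT minus that in LN, called the difference between diet effects. SEs were computed from the F statistic, and 95% intervals from the SEs. Called "not overlapping" are genes whose 4 libraries of a group all lie beyond those of the other. The scripts were tested on simulated counts. Alternatives were RLE and upper quartile scaling, DESeq2 1.42.0, no filter, a stricter filter (5 CPM or more in 4 libraries), voom of limma 3.58.1 with quality weights, a replicate block, only the compared groups, each library left out and, chosen after seeing the data, 3 VAT libraries left out. The labels name no pairing, and the main fit used none. Deviations from the group means correlated at -0.098 to 0.045 over 24 pairs of same-numbered libraries. Differently numbered libraries were not compared, so these values cannot decide whether equal numbers pair samples.

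The text names the 8 receptors, up to 4 genes per list and tissue comparison with the smallest adjusted p, the 3 genes most like each receptor, and other receptors or markers beside them. Cxcl16, Tbx21, Tcf7 and Gng2 were named after their values were seen. The receptors and lists were chosen with earlier results of these data known. Transcript lengths come from GENCODE M21, promoters from RefSeq GRCm38.p6, and gene positions of the table itself are not used. Adrbk1 is not a name in the table, and Grk2 is. No Cxcr5 promoter was used. Some genes of the lists are not reported here.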

Additional observations from a re-analysis of the deposited data

Results flagged for a closer look

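In 9 of 32 groups (8 receptors in 4 groups), the highest of 4 libraries stood so far out that its gap to the next, over the group's range, passed Dixon's 95% critical value for 4 samples. Chance alone sets apart about 1 in 20 groups of normally spread values. Where 3 libraries are at 0, as for Ccr4 in lean VAT and Cx3cr1 in lean LN, any value of the fourth does so, and the 9 are not compared with that rate. Cxcr6 in HFD VAT replicate 1 stood at 923.5 CPM, against 796 to 807 in the other 3 libraries. Ccr4 stood at 20.37 CPM in HFD LN replicate 3 (others 0 to 2.63), at 8.291 in lean LN replicate 1 (others 0.0187 to 0.701) and at 0.0213, 1 count, in lean VAT replicate 3 (others 0). Cxcr5 stood at 0.9642 CPM in HFD VAT replicate 3 (others 0 to 0.0233). Cxcr4 stood at 55.09 CPM in lean VAT replicate 1 (others 1.59 to 4.31). Cx3cr1 stood at 15.24 CPM in HFD LN replicate 3 (others 0 to 1.53), at 1.545 in lean LN replicate 2 (others 0) and at 11.93 in lean VAT replicate 2 (others 0 to 0.987). HFD LN replicate 3 was the highest of its group for both Ccr4 and Cx3cr1.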

How the results depend on the processing

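The calls of Cxcr3 and Cxcr6 between tissues held under all 25 alternatives run, at log2 differences of 1.84 to 2.16 and 2.25 to 2.48 for Cxcr3 and 1.94 to 2.15 and 1.64 to 1.958 for Cxcr6 on HFD and in lean mice. Of 1166 values of the 8 receptors under the alternatives, 1091 kept direction and side of the threshold, 7 lost and 11 gained a call, and 57 changed sign, none of which edgeR had called. The Ccr4 average call gave adjusted p = 0.157 with the replicate block and changed as given above. Counts of called genes moved most with the test: DESeq2 gave 2578, 1569, 769, 236, 635 and 3395 genes for tissue on HFD, tissue in lean mice, diet in VAT, diet in LN, the difference between diet effects and the tissue average, where edgeR gave 714, 476, 9, 0, 3 and 1614. For tissue, edgeR's split was 420 higher and 294 lower on HFD and 332 and 144 in lean mice, DESeq2's 1186 and 1392, and 907 and 662. voom gave 1373 for tissue in lean mice, 32 for diet in VAT, 3 for diet in LN, 6 for the difference and 2523 for the average. Without a filter, tissue on HFD gave 441, diet in VAT 2, the difference 1 and the average 1020. Upper quartile scaling and the stricter filter each gave 1 for the difference. The replicate block gave 1 for diet in VAT and 0 for the difference, and the compared groups alone gave 0 for diet in VAT. Without 3 VAT libraries diet in VAT gave 62 and the difference 46. Leaving out 1 library gave 3 to 40 for diet in VAT, the most without HFD VAT replicate 4, 0 to 1 for diet in LN and 0 to 24 for the difference.

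Ccr2 differed by nearly 0 between diets and changed sign: in VAT 0.0483 under RLE and DESeq2, 0.0471 under upper quartile, 0.0147 without a filter and 0.179 with the replicate block. In LN it gave 0.0057 under RLE and DESeq2, 0.0131 under upper quartile, 0.00935 without a filter, 0.00797 with the stricter filter, 0.687 in voom and 0.00631 without 3 VAT libraries. Its difference between diet effects was 0.0426 under RLE and DESeq2, 0.034 under upper quartile, 0.0053 without a filter and 0.802 with the block. Cxcr4 gave -0.66 in lean mice, 0.52 for the difference and -0.39 for the average in voom, and -0.78, 0.64 and -0.46 without 3 VAT libraries. Cxcr5 gave 1.69 for the difference in voom. The cause was not tested. Leaving out 1 library gave ranges that cross 0: Ccr2 -0.39 to 0.32 (diet in VAT), -0.53 to 0.51 (diet in LN) and -0.51 to 0.53 (difference), Ccr4 -1.04 to 3.89 (diet in LN) and -0.38 to 4.57 (difference), Ccr9 -0.0216 to 0.51 (diet in LN), Cx3cr1 -0.11 to 10.3 (tissue in lean mice) and -8.28 to 2.14 (difference), Cxcr4 -0.75 to 2.31 (tissue in lean mice), -2.79 to 0.27 (difference) and -0.61 to 0.92 (average) and Cxcr6 -0.29 to 0.0255 (diet in VAT). Depth limits values near 3 counts, and 4 libraries a group limit the rest.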
